A study of Xenopus laevis with 6 samples.

Results

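The genes of the CCN matrix proteins nov, ctgf and cyr61, and genes tied to the Hippo pathway and its coactivators Yap and Taz, were read in whole-embryo RNA of the frog Xenopus laevis. Members were the rows of the count table whose name, without the final L or S and any paralog number, was nov, ctgf, cyr61, ankrd1, amotl2, yap1, wwtr1, lats2 or tead1. This gave 12 of 45090 rows, an L and an S row for each of 6 names. L and S mark the homeologs, the duplicated copies of a gene in this allotetraploid species. No row carried the plain name amotl2, yap1 or tead1. The genes yap1 and tead1 were not analysed here, and the rows amotl2-like.L and amotl2-like.S are described beside the 12 without being counted among them. The set was selected on the fold change of nov.L between half-size and intact embryos, which put nov.L higher in half-size embryos, so the values of nov.L in that comparison are a description and carry no p-value.

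CCN proteins are secreted modular proteins of the extracellular matrix that bind integrins, heparan sulfate proteoglycans and growth factors. In the Hippo pathway, Mst and Lats kinases with their Sav and Mob partners phosphorylate Yap and Taz, which holds them in the cytoplasm. Unphosphorylated Yap and Taz enter the nucleus and bind Tead factors, and in mammalian cells ctgf, cyr61, ankrd1, amotl2 and lats2 are among their best known target genes. In Xenopus, Ctgf has been found to bind BMP and Cyr61 to act on gastrulation movements.

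The study compared 3 libraries of half-size embryos with 3 libraries of intact embryos, all wild-type. Half-size embryos were twins made by parting the cells of an embryo after its first cleavage, and intact embryos were their undivided siblings. Both groups were fertilized in vitro, dejellied in cysteine and grown to late gastrula, Nieuwkoop and Faber stage 12.5. The labels number the libraries of both groups from 1 to 3, and equal numbers are called sibling sets 1, 2 and 3 here. How many embryos went into a library was not stated in the labels.

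Total counts per library ranged from 20069300 to 29284864, so 1 count equalled between 0.0348 and 0.0501 CPM, the count normalized to the TMM-scaled library size. Of all rows, 21673 passed the filter on low counts and were tested with edgeR. With the group as the only term, 0 genes passed an adjusted p of 0.05, while 776 had an unadjusted p under 0.05, DESeq2 called 52 genes and limma-voom 0. With the sibling set as a block, called the paired fit here, edgeR called 1283 genes, 5.92% of those tested, of which 431 (1.99%) were higher and 852 (3.93%) lower in half-size embryos. Below, "rose" and "fell" refer to the paired fit. Markers of all germ layers were present. The summed level of the multiciliated cell markers was 37.5 to 56.9 CPM in half-size and 103 to 135 CPM in intact libraries, and 8 of 8 rows fell. For the epidermis markers it was 2960 to 4090 CPM in half-size and 4370 to 5310 CPM in intact libraries, and 6 of 6 rows fell. These 6 rows are the copies of 3 genes, and tp63.L among them was low. It had 0, 11 and 5 counts in half-size and 5, 62 and 9 counts in intact libraries. Of the notochord and organizer markers 4 of 10 rose, with sums of 982 to 1230 CPM in half-size and 731 to 990 CPM in intact libraries. The 4 were both copies of not, and the rows chrd.1.L.g and chrd.2.L.g. All 10 had paired log2 fold changes above 0. Of the ventrolateral mesoderm markers 2 of 5 rose (144 to 275 CPM in half-size, 160 to 200 CPM in intact libraries). These 2 rows are the copies of 1 gene, wnt8a, and the other 3 had paired log2 fold changes below 0 and were not called. Of the markers of later organs 0 of 2 were called (7.06 to 9.57 CPM in half-size, 11.3 to 12.2 CPM in intact libraries). No marker of neural plate (7 rows), paraxial mesoderm (10) or endoderm (10) was called. The sums were 723 to 854 against 570 to 857 CPM, 714 to 1280 against 758 to 1170 CPM and 690 to 778 against 686 to 771 CPM, half-size libraries first. In whole-embryo RNA, fewer cells of a type and less RNA per cell cannot be told apart, and the part these shifts play in the results below was not tested.

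Of the 12 rows, 8 passed the filter on low counts. Leaving aside nov.L, which the set was chosen for, 0 of the other 7 passed in the paired fit of edgeR, against 5.92% of all genes tested. At an unadjusted p under 0.05 the 7 gave 1 row, wwtr1.S, in the paired fit, against 4897 of all 21673 genes tested. Without pairing the 7 gave 0 rows, against 776 of all genes tested. DESeq2 and limma-voom called 0 of the 7 without pairing. The median paired log2 fold change of the 7 was 0.27, beside a median of 0.00 over all genes tested. Of the 7 values, 6 lay above 0, among them lats2.S at 0.0042, and 1 below. Over all 21673 genes tested, 10931 lay above 0. The 7 rows include both copies of some genes, and no shift of the set is read from these values.

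The gene nov.L encodes CCN3, a member of the family that in mammalian cells acts on adhesion and growth and binds Notch1. It had 125, 25 and 37 counts in half-size libraries 1, 2 and 3, against 13, 15 and 14 counts in intact libraries 1, 2 and 3. The corresponding levels were 5.35, 1.25 and 1.40 CPM in half-size and 0.540, 0.521 and 0.690 CPM in intact libraries. All 3 half-size libraries lay above all 3 intact libraries, and half-size library 1 stood far above the other 2. Non-overlap of this kind, with half-size embryos higher, held for 4.14% of all genes tested, and 9.04% did not overlap in either direction. Half-size over intact, the fold was 9.90 in sibling set 1 (95% exact counting interval 5.58 to 19.1), 2.40 in set 2 (1.22 to 4.90) and 2.02 in set 3 (1.07 to 4.05). These intervals cover counting error only. They rest on the values nov.L was chosen for, so neither they nor the SEs of nov.L below are read as tests.

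Library half-size 1 held 125 of the 187 nov.L counts of its group. The means were 2.67 ± 2.33 CPM in half-size and 0.584 ± 0.0924 CPM in intact libraries (SD, n = 3 each). The paired log2 fold change was 1.99 (SE 0.415), and 1.14 (SE 0.38) without sibling set 1. In the authors' deposited table the normalized mean of nov.L was 62.6 in half-size and 13.7 in intact embryos, a ratio of 4.58. The homeolog nov.S was near the detection limit, with 1, 6 and 1 counts in half-size libraries and 2, 2 and 7 counts in intact libraries 1, 2 and 3. Its group totals were 8 counts in half-size and 11 in intact embryos, and it did not pass the filter. The folds of nov.S between siblings were 0.515 (interval 0.00873 to 9.89), 4.32 (0.773 to 43.8) and 0.109 (0.00243 to 0.852). These folds lay on both sides of 1, and the intervals of sets 1 and 2 included 1. At such counts no direction of nov.S is read from them or from its group totals.

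**Figure D1:**
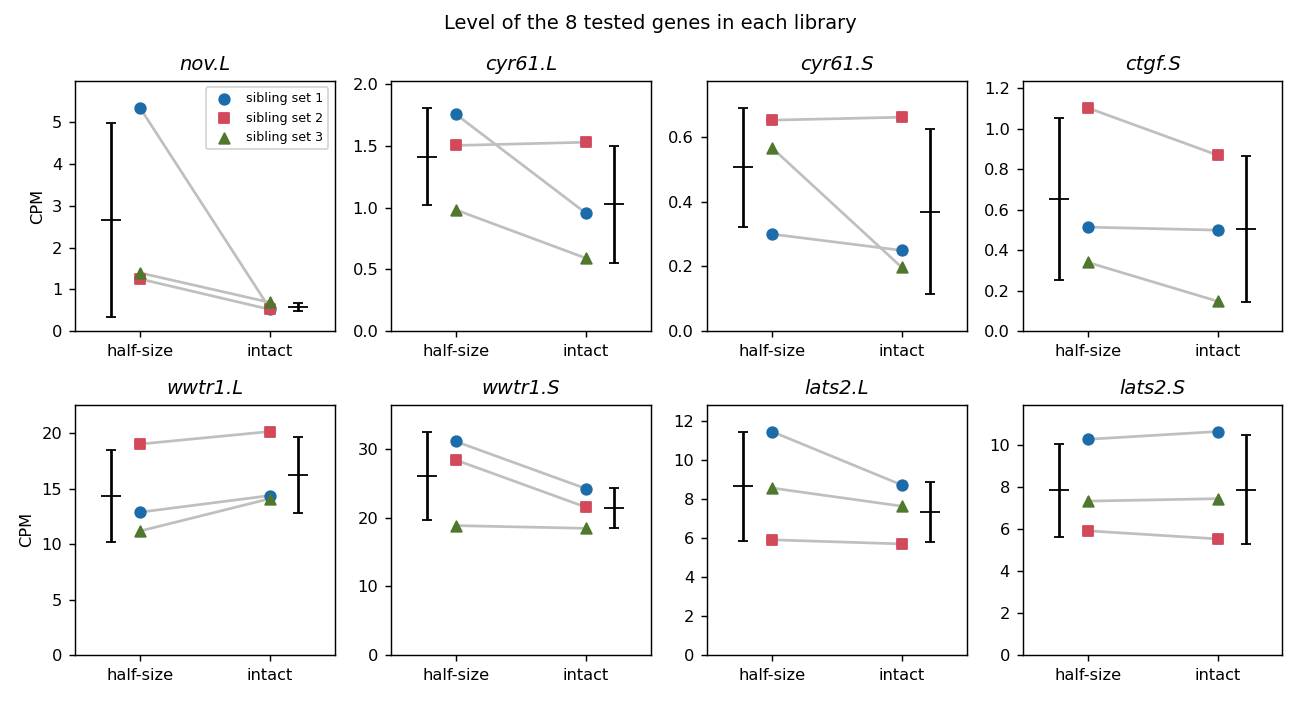
Level in CPM (linear axis from 0) of the 8 tested genes, with half-size libraries on the left and intact libraries on the right of each panel. Points are libraries, grey lines join siblings, and black bars give the mean and SD of 3 libraries. For nov.L the 3 half-size libraries, at 1.25 to 5.35 CPM, lie above the intact libraries, and in the other 7 panels the groups overlap.

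The gene cyr61 encodes CCN1, in mammalian cells a rapidly induced matrix ligand of integrins. Its L copy had 41, 30 and 26 counts in half-size libraries 1, 2 and 3, against 23, 44 and 12 counts in intact libraries 1, 2 and 3. The half-size library was higher in sets 1 and 3 and level with its sibling in set 2, where the values were 1.503 CPM in the half-size and 1.529 CPM in the intact library, and the groups overlapped. Means were 1.41 ± 0.39 CPM in half-size and 1.03 ± 0.47 CPM in intact libraries (SD, n = 3 each), and the log2 fold change of the paired fit was 0.49 ± 0.30 (SE, edgeR adjusted p = 0.373). The S copy had 7, 13 and 15 counts in half-size libraries and 6, 19 and 4 counts in intact libraries. Its groups overlapped too, and its paired log2 fold change was 0.47 ± 0.44 (SE, edgeR adjusted p = 0.580). At these counts the fold between siblings carried wide intervals, for cyr61.S in set 3 a fold of 2.87 with an interval of 0.915 to 11.9.

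The gene ctgf encodes CCN2, also known as connective tissue growth factor. Reads were counted on the S copy almost alone. Its counts were 12, 22 and 9 in half-size and 12, 25 and 3 in intact libraries. The order of the sets was the same in both groups, set 2 highest and set 3 lowest, and the groups overlapped. Means were 0.652 ± 0.399 CPM in half-size and 0.505 ± 0.361 CPM in intact libraries (SD, n = 3 each), and the paired log2 fold change was 0.38 ± 0.38 (SE, edgeR adjusted p = 0.604). The L copy had 1 count in half-size library 1 and 0 in the other 5 libraries. Of the remaining CCN genes, wisp3.L had 3 counts over the half-size libraries and 9 over the intact libraries. In wisp1.S there was 1 count, in intact library 2, and wisp1.L and wisp3.S had 0 in every library. None of these 4 rows passed the filter.

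The gene ankrd1, a muscle ankyrin repeat gene used as a Yap and Taz readout in mammalian cells, was close to undetected. The L copy had 0, 2 and 1 counts in half-size libraries and 0, 0 and 3 counts in intact libraries, a total of 3 in each group. The S copy had 0 counts in every library, which allows a level of up to 0.113 to 0.150 CPM in half-size libraries and 0.104 to 0.148 CPM in intact libraries (3 counts per library). No difference in ankrd1 could be detected at this depth.

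The gene wwtr1 encodes Taz, the coactivator that shares its Tead partners and its Lats sites with Yap. Its L copy was at 12.9, 19.0 and 11.2 CPM in half-size libraries 1, 2 and 3, against 14.4, 20.2 and 14.1 CPM in intact libraries 1, 2 and 3. Half-size embryos were lower in 3 of 3 sets and the group ranges overlapped (paired log2 fold change −0.19 ± 0.12 SE, edgeR adjusted p = 0.391). The S copy was at 31.2, 28.4 and 18.9 CPM in half-size and 24.3, 21.6 and 18.5 CPM in intact libraries. Half-size embryos were higher in 3 of 3 sets, by a fold of only 1.02 in set 3 (paired log2 fold change 0.27 ± 0.12 SE, edgeR adjusted p = 0.199). A direction shared by all 3 sets is common, since 22.5% of genes tested were lower and 21.7% higher in half-size embryos in every set. With both copies summed, the paired log2 fold change of wwtr1 was 0.09 ± 0.10 (SE, edgeR adjusted p = 0.644).

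The gene lats2 encodes a kinase that phosphorylates Yap and Taz, and is itself a target of them in mammalian cells. The L copy was at 11.5, 5.91 and 8.57 CPM in half-size libraries 1, 2 and 3, against 8.73, 5.699 and 7.64 CPM in intact libraries 1, 2 and 3. The half-size library was the higher of its pair in 3 of 3 sets, and the group ranges overlapped (paired log2 fold change 0.21 ± 0.145 SE, edgeR adjusted p = 0.430). The S copy was at 10.3, 5.91 and 7.33 CPM in half-size and 10.6, 5.53 and 7.44 CPM in intact libraries. Siblings differed little and in no common direction. The paired log2 fold change of lats2.S was 0.0042 ± 0.1403 (SE, edgeR adjusted p = 0.990).

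The rows amotl2-like.L and amotl2-like.S, which are named after a gene of the angiomotin family, did differ. Angiomotins are junction-associated proteins that bind Yap and Taz, and amotl2 is a Yap target in mammalian cells. These rows were added after their names and values had been seen. The L row was at 68.1, 57.8 and 55.1 CPM in half-size libraries 1, 2 and 3, against 50.7, 43.0 and 34.6 CPM in intact libraries 1, 2 and 3. The S row was at 85.7, 79.3 and 58.6 CPM in half-size and 57.2, 56.6 and 33.2 CPM in intact libraries. All half-size values lay above all intact values in both rows, as for 4.14% of genes tested, although amotl2-like.S in half-size library 3 exceeded intact library 1 by little. Folds between siblings were 1.34, 1.34 and 1.59 for the L row and 1.5, 1.4 and 1.76 for the S row in sets 1, 2 and 3. Both rose in the paired fit, with log2 fold changes of 0.51 ± 0.09 and 0.63 ± 0.10 (SE, edgeR adjusted p = 0.0129 and 0.00517), while without pairing neither passed (log2 fold changes 0.50 and 0.60, edgeR adjusted p = 0.9998 for each). Without sibling set 3 the paired call of the L row was lost (adjusted p = 0.0693) and that of the S row was kept (adjusted p = 0.0280). In the authors' deposited table the ratios of half-size to intact were 1.42 for the L row and 1.53 for the S row.

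**Figure D2:**
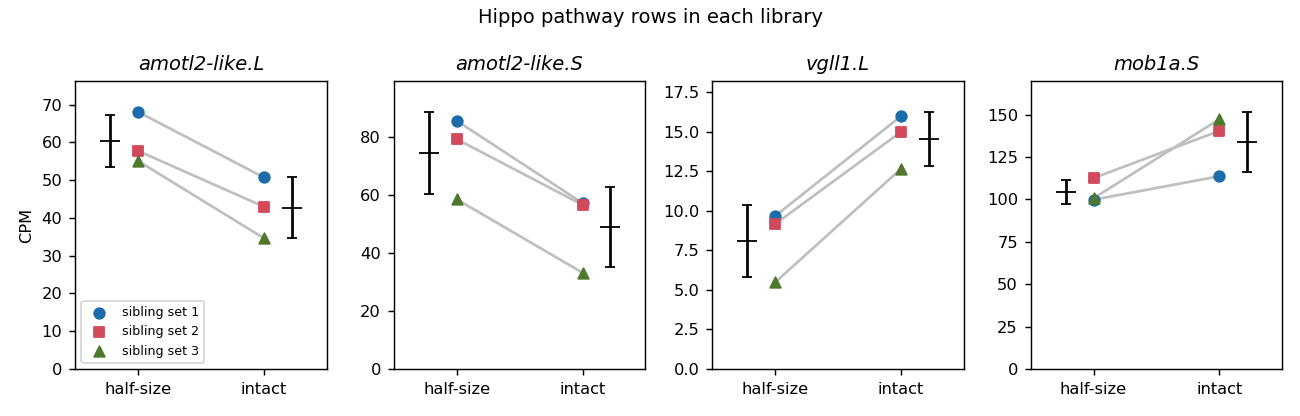
Level in CPM (linear axis from 0) of amotl2-like.L, amotl2-like.S, vgll1.L and mob1a.S, with half-size libraries on the left and intact libraries on the right. Points are libraries, grey lines join siblings and black bars give mean and SD of 3 libraries. In every set the amotl2-like rows are higher and vgll1.L and mob1a.S lower in the half-size library.

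The other genes of the pathway were read from lists matched by symbol. Of the cofactors that bind Tead, 3 rows outside the 12 were tested, and 1 fell, where 3.93% of all genes fell. It was vgll1.L, a vestigial-like gene whose mammalian product competes with Yap and Taz for Tead. It was at 9.67, 9.17 and 5.475 CPM in half-size libraries 1, 2 and 3, against 16.0, 15.0 and 12.7 CPM in intact libraries 1, 2 and 3. The groups did not overlap, and non-overlap with half-size embryos lower held for 4.9% of all genes tested. The paired log2 fold change was −0.87 ± 0.14 (SE, edgeR adjusted p = 0.00765), and without pairing it was −0.85 (edgeR adjusted p = 0.9998). The fall of vgll1.L went beside those of the epidermis and multiciliated cell markers given above, and their part in it was not tested. The homeolog vgll1.S, which did not pass the filter, had 5, 7 and 2 counts in half-size and 14, 12 and 6 counts in intact libraries. Both vgll3 rows missed the threshold (paired log2 fold changes 0.13 and −0.03).

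Of 29 tested rows of the Hippo kinases and scaffolds outside the 12, 1 fell and 0 rose, against 5.92% called among all genes. Their median paired log2 fold change was −0.11 and their range −0.45 to 0.87. The gene that fell was mob1a.S, whose product activates Lats kinases, at 104 ± 7.14 CPM in half-size and 134 ± 17.8 CPM in intact libraries (SD, n = 3 each; paired log2 fold change −0.35 ± 0.09 SE, edgeR adjusted p = 0.0431). Its call was lost without sibling set 2 (adjusted p = 0.149) and without set 3 (adjusted p = 0.234). The homeolog mob1a.L was at 90.7 ± 9.51 CPM in half-size and 111.5 ± 7.22 CPM in intact libraries (SD, n = 3 each; paired log2 fold change −0.30 ± 0.08 SE, edgeR adjusted p = 0.0569). For the angiomotin gene amot.S, which also stood just outside the threshold, the paired value was 0.65 ± 0.17 on the log2 scale (SE, edgeR adjusted p = 0.0511). Its homeolog amot.L was at −0.18 ± 0.22 (SE, edgeR adjusted p = 0.673). The related rows amotl1.L and amotl1.S were at −0.45 ± 0.14 and −0.09 ± 0.16 (SE, edgeR adjusted p = 0.0870 and 0.777). The kinase gene lats1.S was at 37.6 ± 8.93 CPM in half-size and 34.1 ± 9.81 CPM in intact libraries (SD, n = 3 each; edgeR adjusted p = 0.421). All genes of this paragraph but mob1a.S were named after their values had been seen.

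Among genes known as Yap and Taz targets in mammalian cells, 28 rows outside the 12 were tested, 1 rose and 1 fell, near the 5.92% called among all genes, and the median paired log2 fold change was 0.06. The rise was that of birc5.1.L, a gene of the survivin family with roles in mitosis and survival, at 32.2, 9.12 and 23.8 CPM in half-size and 20.6, 8.17 and 13.7 CPM in intact libraries (paired log2 fold change 0.56 ± 0.14 SE, edgeR adjusted p = 0.0415). The group ranges overlapped, and the call was lost without sibling set 1 (adjusted p = 0.0986) and without set 3 (adjusted p = 0.211). The other birc5 rows did not pass. Paired log2 fold changes were 0.31 for birc5.1.S, 0.11 for birc5.2.L and −0.01 for birc5.2.S (edgeR adjusted p = 0.218, 0.597 and 0.973). The fall was that of axl.L, a receptor tyrosine kinase gene, at 3.47, 24.9 and 3.29 CPM in half-size and 5.74, 32.8 and 5.92 CPM in intact libraries (paired log2 fold change −0.62 ± 0.14 SE, edgeR adjusted p = 0.0311). Its level in set 2 stood far above that in the other sets in both groups, and its call was lost when any set was left out (adjusted p = 0.0598, 0.0613 and 0.122 without sets 1, 2 and 3). The remaining 26 rows did not pass, among them both nuak2 and both thbs1 rows.

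Of 10 tested rows for receptors that bind CCN proteins in mammalian cells, 1 rose and 0 fell, where 1.99% of all genes rose. It was notch1.L, at 99.5, 172 and 142 CPM in half-size and 81.1, 128 and 100.3 CPM in intact libraries (paired log2 fold change 0.41 ± 0.08 SE, edgeR adjusted p = 0.0164). The groups overlapped, and the call was lost without sibling set 2 (adjusted p = 0.110) and without set 3 (adjusted p = 0.0904). The homeolog notch1.S did not pass (paired log2 fold change 0.17 ± 0.09 SE, edgeR adjusted p = 0.308). Its folds between siblings were 1.25, 1.2 and 0.952 in sets 1, 2 and 3. The integrin genes itga5, itga6 and itgav did not pass, and their paired log2 fold changes lay between −0.39 (itga5.S) and 0.45 (itga6.S).

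**Figure D3:**
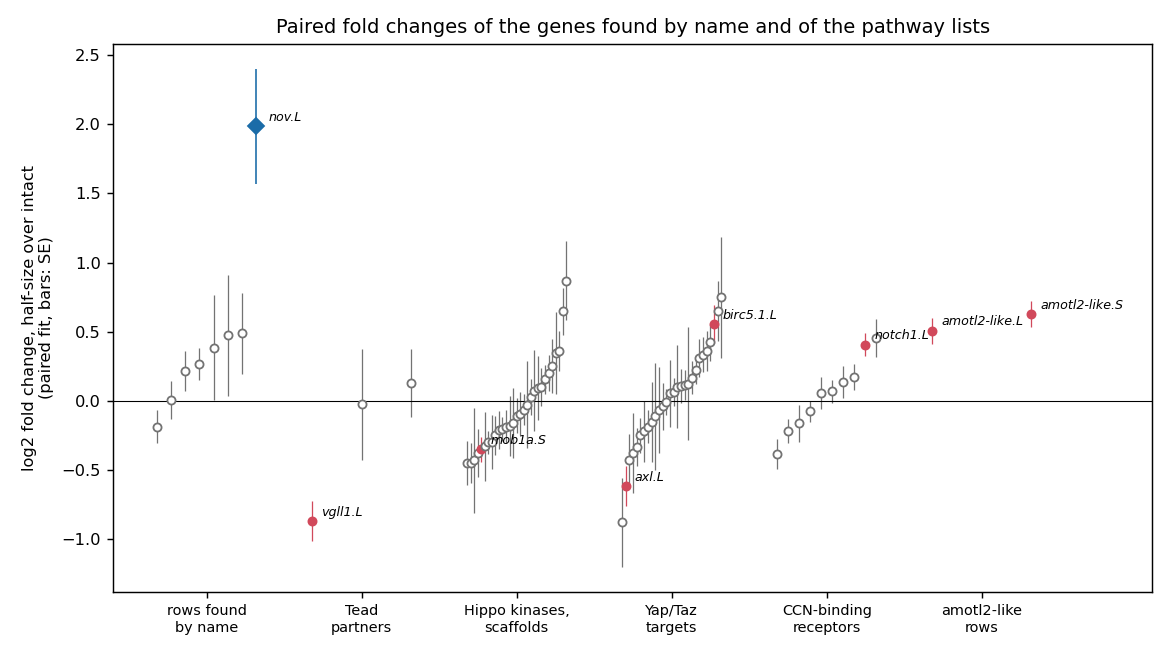
Paired log2 fold change, half-size over intact, with its SE, for the 8 tested rows found by name, the tested rows of 4 pathway lists (the 12 rows left out) and the amotl2-like rows. Red filled points passed the threshold, open points did not, and the blue diamond is nov.L, which the set was chosen for. Apart from nov.L the called rows lie between −0.87 (vgll1.L) and 0.63 (amotl2-like.S).

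The share of each homeolog pair that was counted on the L copy needs no scaling between libraries, but was not corrected for transcript length, so it does not rank the copies by level. For wwtr1 the L copy held 29.3%, 40.1% and 37.2% of counts in half-size libraries 1, 2 and 3, against 37.2%, 48.3% and 43.3% in intact libraries 1, 2 and 3. Half-size minus intact, the share differed by −7.95, −8.21 and −6.08 percentage points in sets 1, 2 and 3, and between siblings the 95% exact intervals, which cover counting error only and not the spread between libraries, overlapped in set 3 alone. An L over S ratio lower in half-size embryos in every set was seen in 20.7% of the 4934 pairs with both copies tested. In 4.60% of pairs the copies moved in opposite directions in every set, as for wwtr1. For lats2 the L share was 50.0% to 53.9% in half-size and 45.1% to 50.8% in intact libraries, and for amotl2-like 42.1% to 48.5% in half-size and 43.1% to 51.0% in intact libraries. The share of amotl2-like also differed in 1 direction in every set, by −2.70, −1.01 and −2.55 percentage points in sets 1, 2 and 3. For cyr61 it averaged 72.9 ± 11.3% in half-size and 74.7 ± 4.74% in intact libraries (SD, n = 3 each). The L share of nov was 99.2%, 80.6% and 97.4% in half-size against 86.7%, 88.2% and 66.7% in intact libraries, on as few as 15 counts. The difference between the copies was not tested. Reads that match both copies may have been split between them or dropped, and the sources used here do not state which.

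**Figure D4:**
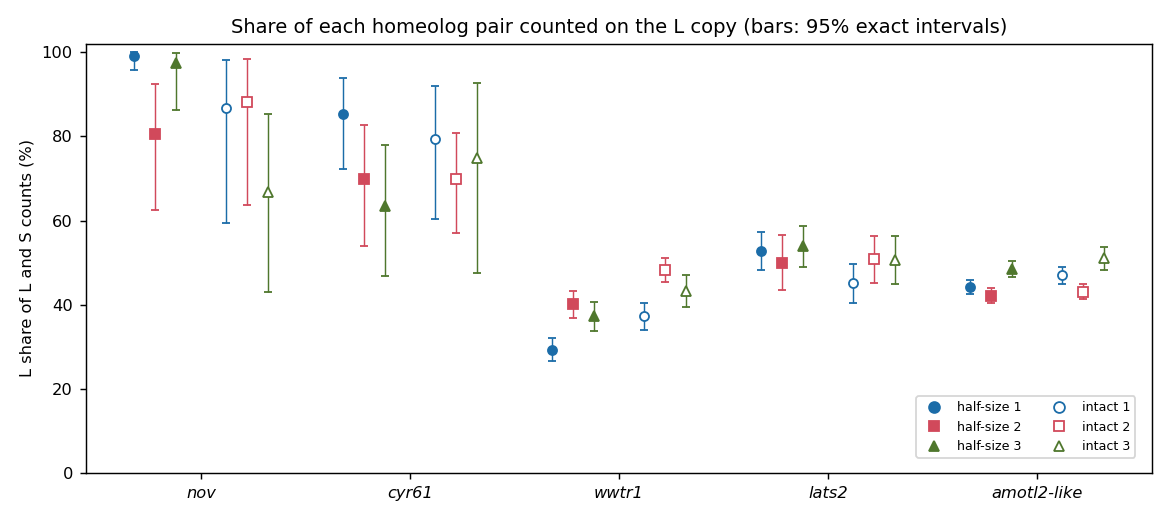
Percentage of the L and S counts of a homeolog pair that fell on the L copy (linear axis), with half-size libraries as filled and intact libraries as open symbols, and bars for 95% exact binomial intervals. For wwtr1 and amotl2-like each half-size library lies below its sibling, and for nov, cyr61 and lats2 the sets differ in direction.

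The choice of nov.L rested on the half-size and intact embryos and not on differences between sibling sets, although the same 6 libraries enter both. The replicate term of the paired model passed for 5 of the 7 tested rows other than nov.L, against 49.1% of all genes tested. The level of ctgf.S averaged 0.506, 0.985 and 0.244 CPM in sets 1, 2 and 3 (edgeR adjusted p = 0.0168). Both lats2 copies were highest in set 1 and lowest in set 2, at 10.1, 5.805 and 8.105 CPM for lats2.L and 10.5, 5.72 and 7.38 CPM for lats2.S in sets 1, 2 and 3 (edgeR adjusted p = 0.0123 and 0.00543). The row wwtr1.L was highest in set 2, at 13.6, 19.6 and 12.6 CPM, and wwtr1.S lowest in set 3, at 27.7, 25.02 and 18.7 CPM (edgeR adjusted p = 0.00818 and 0.0195). The copies of lats2 thus shared their order over the sets, and those of wwtr1 did not.

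For nov.L, whose choice rested on the same values, the set means of 2.945, 0.887 and 1.04 CPM are a description. Half-size library 1 was the high one, while the 3 intact libraries lay within 0.521 to 0.690 CPM. The cyr61 copies did not pass (edgeR adjusted p = 0.101 and 0.140). DESeq2 called 4 of the 7, the copies of wwtr1 and lats2. It gave ctgf.S an adjusted p of 0.167 and cyr61.S no adjusted p. The share of all genes called in that fit is not given here, so this count is not read as particular to these rows. Among the pathway genes, axl.L averaged 4.60, 28.9 and 4.60 CPM and thbs1.L, a thrombospondin gene of the matrix, 2.21, 5.89 and 1.24 CPM in sets 1, 2 and 3 (edgeR adjusted p = 1.97e-06 and 0.000233). Both were highest in set 2, like ctgf.S, wwtr1.L and the cyr61 copies, though cyr61.L by little, at 1.516 CPM against 1.355 CPM in set 1. The share of all genes highest in set 2 is not given here, so this order is not read as particular to these rows. The gene thbs1.L was chosen for naming after its values had been seen.

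**Figure D5:**
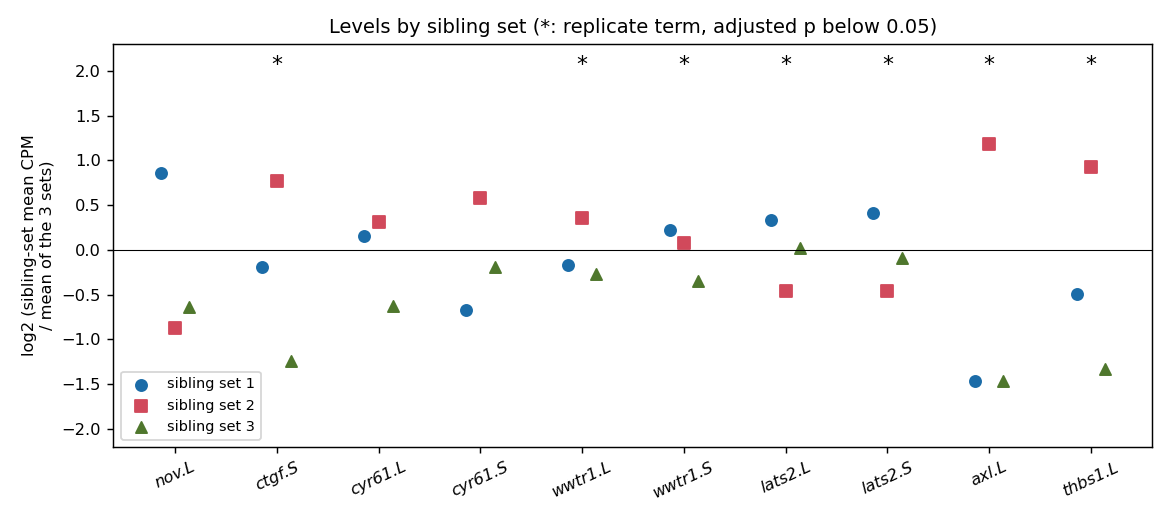
Mean CPM of the half-size and intact library of each sibling set over the mean of the 3 sets, on a log2 axis, for the 8 tested rows, axl.L and thbs1.L. Stars mark rows whose replicate term passed the threshold, here all but cyr61.L and cyr61.S, with nov.L left unmarked because it was chosen for its values. Set 2 is the highest for ctgf.S, cyr61.L, cyr61.S, wwtr1.L, axl.L and thbs1.L and the lowest for nov.L and both lats2 rows.

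The 5 genes with a symbol and a mean of at least 1 CPM whose log2 CPM followed nov.L most closely over the 6 libraries were rnf168.L (Pearson's r = 0.992), ddhd1.S (0.985), stk17a.L (0.981), rabgef1.S (0.980) and tmem57.S (0.978), out of 11664 candidates. These r are descriptions. The points share libraries, depth and scaling, and half-size library 1 was the highest in each of the 5. Without it the r over 5 libraries were 0.974, 0.980, 0.989, 0.918 and 0.996. The genes were picked with those 5 libraries included, so these values are no separate check of the likeness. The swing of these genes was far smaller than that of nov.L. The gene rnf168.L, which encodes a ubiquitin ligase of the DNA damage response, was at 45.1, 29 and 30.6 CPM in half-size and 22.7, 20.7 and 25.1 CPM in intact libraries. For the other tested members r with nov.L ran from −0.442 for wwtr1.L to 0.661 for lats2.L, with 0.5 for cyr61.L and 0.0576 for ctgf.S. The 5 genes were picked as the highest r, so nothing is read from lower values in the members.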

How the data were processed

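Messenger RNA of whole embryos was sequenced in 6 libraries. The authors deposited raw read counts per gene, and per the submitters' processing notes TopHat2, HTSeq and DESeq were used, without versions. Genome build and annotation: not given in the sources used here. In addition, the authors' deposited table of their comparison holds a signal per gene (mean counts divided by size factors, which recomputation from the counts matched within 1% for 100% of genes), a linear ratio of half-size to intact, its log2 and a p-value, of which the signal and ratio are quoted. The column of each group mean was identified by that recomputation. The library kit keeps strand, per the labels, which do not say if counting used it.

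Counts were tested with edgeR 4.0.16 in R 4.3.3 (quasi-likelihood F test, TMM, filterByExpr, Benjamini-Hochberg over 21673 genes, threshold 0.05, two-sided) with the group as the only term. The sibling set was a block in the paired fit. The replicate term was tested with 2 degrees of freedom. The labels name siblings, and deviations from group means correlated at 0.741, 0.807 and 0.679 between libraries of the same number, against −0.539 to −0.216 between others. The deviations of a gene sum to 0 within each group, so negative values beside positive ones are built in and add nothing. DESeq2 1.42.0, limma 3.58.1 (voom), other size factors, no filter, summed homeologs and libraries left out were alternatives. SEs derive from the F statistic. CPM values are means ± SD.

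The members and lists were chosen with earlier results of these data known. Every member is described, and of each list up to 8 called genes with the smallest p were to be named. Lists were matched by symbol, for 18 of 30 symbols of the Hippo list, 4 of 10 of the Tead partners, 24 of 30 of the targets, 7 of 14 of the receptors and 5 of 6 of the CCN family. Of the marker symbols, 3 of 5 matched for epidermis, 3 of 4 for multiciliated cells and 3 of 5 for ventrolateral mesoderm. For neural plate and paraxial mesoderm 4 of 5 matched, for notochord and endoderm 5 of 5, and for later organs 3 of 5. Sequences and coordinates were not used here.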

Additional observations from a re-analysis of the deposited data

How the results depend on the processing

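Without pairing, edgeR called 0 of 21673 genes and 0 of the 8 tested rows. It also called 0 with other size factors, with homeologs summed and without the filter, where 35048 genes and 11 rows were tested. Genes called were 1283 with the replicate block, 52 with DESeq2, and with the block 1118 with DESeq2, 1364 with limma-voom, 1271 with other size factors, 2568 without the filter and 1044 with homeologs summed. Leaving out a library without pairing gave 0 genes. Leaving out sets 1, 2 and 3 with the block gave 1471, 1055 and 507 genes. There 0 to 1 of the tested rows were called, of 7 tested without set 2 and of 8 without set 1 or 3. DESeq2 with the block called 0 of the 8 rows, and gave no adjusted p for nov.L, ctgf.S, cyr61.L and cyr61.S. With all sets and the block, 1 row was called in edgeR, in limma-voom, with other size factors and without the filter. With homeologs summed and the block it was 1 of 5 genes. That 1 was the gene the set was chosen for, so nothing is read from it. In all, 3 rows were called with the block when the amotl2-like rows, added after seeing the data, were counted. Between sibling sets, leaving out a set gave 4663 to 9512 genes and 2 to 4 rows, against 10631 genes and 6 rows with all sets, nov.L included. Fewer samples entered these fits.

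The log2 fold changes of 5 genes turned sign, among them axl.L, which was called in the paired fit. For axl.L this came only without pairing and without intact library 2. That fit dropped the high intact value of 32.8 CPM and kept its half-size sibling at 24.9 CPM. In all 8 paired settings axl.L stayed below 0, between −0.7868 and −0.5226. For lats2.S, at −0.0048 without pairing, the values above 0 were 0.0042 with the replicate block, 0.0024 with DESeq2, 0.0128 with DESeq2 and block, 0.0239 with limma-voom, 0.0018 and 0.0116 with other size factors without and with block, and 0.0095 and 0.0199 without the filter. With libraries or sets left out it lay between −0.2471 and 0.2816, among them 0.0469 and 0.0177 with the block and without sets 1 and 3. With libraries left out, axl.L ranged from −2.1374 to 0.8669, wwtr1.L from −0.4309 to 0.0189 (the highest of each without intact library 2), lats2.L from −0.0189 (without half-size library 1) to 0.4465, and ctgf.S from −0.2732 (without half-size library 2) to 0.9698, with −0.0889 without intact library 3. The cause was not tested. The calls of amotl2-like.S and vgll1.L held in all 8 paired settings. Low counts limit nov.L, cyr61 and ctgf.S. The ankrd1 rows, nov.S and ctgf.L did not pass the filter. Without the filter 11 rows were tested, all but ankrd1.S with its 0 counts.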

Other observations

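Several pathway genes outside the comparisons above showed patterns by copy or by library, all picked after their values had been seen. The copies of axl differed in the place of set 2 among the sibling sets. Set 2 was the highest for axl.L, at 28.9 CPM against 4.60 in each other set, and the lowest for axl.S, at 1.35 CPM against 2.88 and 2.83 CPM in sets 1 and 3. In half-size embryos axl.L was lower in 3 of 3 sets and axl.S higher in 3 of 3 sets. The levels of axl.S were 3.68, 1.55 and 3.44 CPM in half-size and 2.08, 1.15 and 2.22 CPM in intact libraries. Copies opposite to each other in every set were seen in 4.6% of the 4934 pairs with both copies tested. Without pairing and without intact library 2, the log2 fold change of axl.L turned to 0.8669. The paired log2 fold change of axl.S was 0.65 ± 0.22 (SE, edgeR adjusted p = 0.110), and the difference between the copies was not tested.

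The tissue factor gene f3.S, a Yap target in mammalian cells, shared with nov.L a high value in half-size library 1. Its levels were 4.24, 0.401 and 0.529 CPM in half-size and 1.29, 0.348 and 0.838 CPM in intact libraries 1, 2 and 3. Its paired log2 fold change was 0.75 ± 0.44 (SE, edgeR adjusted p = 0.348). Unlike nov.L, f3.S was also highest in set 1 among intact libraries, and it was lower in the half-size library of set 3. In the homeolog f3.L, half-size library 1 did not stand apart. Its levels were 1.63, 1.30 and 1.55 CPM in half-size and 1.16, 2.47 and 1.23 CPM in intact libraries. The paired log2 fold change of f3.L was −0.07 ± 0.31 (SE, edgeR adjusted p = 0.928).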
